A study of Mus musculus with 34 samples.

Results

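The 8 genes described here are 4 members of the Sox family of transcription factors (Sox1, Sox2, Sox3 and Sox9), the transcription factor Pax6, and 3 other genes. Those 3 encode intermediate filament proteins (Nes and Vim) and a fatty acid binding protein (Fabp7) of progenitors. The 8 genes were chosen by name as genes that mark neural progenitor identity, and all 8 were found among the 29876 gene entries of the count table. RNA was measured in 28 libraries of mouse cell lines in 9 groups, made of 3 genotypes at 3 stages of differentiation.

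Deletion cells (129Sv df/+) carried a heterozygous deletion of 7qF3, the part of mouse chromosome 7 that matches human 16p11.2, and so 1 copy of it. Duplication-deletion cells (129Sv df/dp) carried the deletion on 1 chromosome and a duplication of the same region on the other, which leaves 2 copies. Control cells (129Sv +/+) carried neither change. The background strain is given as C57BL/6N for every group, although the genotype labels name 129Sv. Embryonic stem cells (ESCs) were kept in serum with LIF on gelatine. Neural progenitor cells (NPCs) were taken at day 5 and immature dopaminergic neurons at day 16 of a protocol that first passed the cells through an epiblast stem cell state with Activin and FGF2. The libraries numbered 3 deletion, 3 duplication-deletion and 3 control for ESCs, 3, 3 and 5 for NPCs, and 2, 2 and 4 for neurons. The labels do not say whether replicates of a group were separate cultures or clones, so the p-values below describe the scatter among these libraries and may rest on technical replicates.

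Depth ran from 5578151 to 78814037 counts per library. ESC replicate 3 and NPC replicate 5 of each genotype were the shallow ones, with 5578151 to 24053970 counts. As a check of the labels, 6 genes of the deleted interval were set against their control mean at the same stage. The median over these 6 genes was 37.9% to 71.9% in the 8 deletion libraries, 80.1% to 114% in the 8 duplication-deletion libraries and 82.5% to 120% in the 12 control libraries. The summed level of 5 ESC markers was 2.16 to 5.24 CPM (counts per 1e6 counts of the library) in the libraries of the later stages and 801 to 1122 CPM in ESC libraries. The summed level of 5 dividing-cell markers was 94.0 to 200.2 CPM in neurons and 1609 to 3870 CPM in NPCs. These are whole cultures, in which fewer cells of a type and less RNA per cell cannot be told apart.

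Sox1, Sox2 and Sox3 form the SoxB1 group, whose proteins bind the same short DNA motif and keep neural progenitors dividing and undifferentiated. Sox2 also works in ESCs, where it pairs with the POU factor Oct4, the product of Pou5f1, to hold the pluripotent state. Sox9 belongs to the SoxE group and acts in neural stem cells and astrocytes, and Pax6 sets the identity of dorsal forebrain and other regional progenitors. Nestin and vimentin are intermediate filament proteins of the progenitor's long process, and Fabp7 is the brain fatty acid binding protein of radial glia.

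On the authors' build, mm9, Sox2 lay at chr3:34548927-34551382, Sox1 at chr8:12395519-12399555, Sox3 at chrX:58144541-58146605 and Sox9 at chr11:112643524-112649071. Pax6 lay at chr2:105509053-105537226, Nes at chr3:87775015-87784373, Vim at chr2:13495938-13504453 and Fabp7 at chr10:57504729-57508256. None of the 8 genes lies on chromosome 7, where the deletion is. RefSeq promoter windows, which run from 250 bases before to 50 bases after a gene's start on GRCm38.p6, were at hand for 6 of the 8 members, in 7 windows since Pax6 has 2.

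The bases before the start are shown for Sox2, which was higher in ESCs than in NPCs, and for Nes, Vim and Fabp7, which were lower in ESCs than in NPCs. Capitals mark CCAAT (the CCAAT box, also read as ATTGG on the other strand), TATAAA (the TATA box) and TGGGAA (the core of RBPJ sites, here read as TTCCCA on the other strand). The windows are Sox2 at chr3:34649745-34649994, Nes at chr3:87970843-87971092, Vim at chr2:13574061-13574310 and Fabp7 at chr10:57784673-57784922, all on the plus strand of GRCm38.p6. The Sox1 line is a 30-base stretch just after the start, at chr8:12395526-12395555 on the plus strand, with the octamer ATGCAAAT in capitals, the motif that POU factors bind.
Sox2: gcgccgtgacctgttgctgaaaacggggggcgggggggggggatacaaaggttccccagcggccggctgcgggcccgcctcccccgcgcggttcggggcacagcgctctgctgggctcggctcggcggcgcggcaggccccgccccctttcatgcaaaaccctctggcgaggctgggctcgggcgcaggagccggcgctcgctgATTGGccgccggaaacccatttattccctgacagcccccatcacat
Nes: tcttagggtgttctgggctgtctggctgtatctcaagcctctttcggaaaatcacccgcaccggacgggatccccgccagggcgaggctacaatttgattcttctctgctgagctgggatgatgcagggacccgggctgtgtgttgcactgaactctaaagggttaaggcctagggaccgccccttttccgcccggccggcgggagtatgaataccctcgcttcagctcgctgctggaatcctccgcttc
Vim: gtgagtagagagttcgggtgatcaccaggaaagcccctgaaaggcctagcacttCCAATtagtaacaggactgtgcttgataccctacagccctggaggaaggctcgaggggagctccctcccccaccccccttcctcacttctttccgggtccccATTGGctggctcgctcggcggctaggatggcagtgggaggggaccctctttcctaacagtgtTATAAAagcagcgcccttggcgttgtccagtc
Fabp7: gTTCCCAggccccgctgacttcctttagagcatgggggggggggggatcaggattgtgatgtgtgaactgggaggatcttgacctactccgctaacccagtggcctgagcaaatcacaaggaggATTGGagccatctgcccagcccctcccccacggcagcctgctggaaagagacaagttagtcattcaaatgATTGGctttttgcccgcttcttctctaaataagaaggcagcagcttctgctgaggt
Sox1 octamer: gccagcgcgccATGCAAATcaccgccgccg
Both strands were searched over the full windows. The Sox1 window held ATGCAAAT, which stood in 1.74% of 32851 windows of the same length. CCAAT stood in the windows of Sox1, Sox2, Vim and Fabp7 and in 1 of the Pax6 windows, and in 37.4% of all windows. TATAAA stood in the Vim window, 32 bases before the start, and in 13.6% of all windows. TGGGAA stood in the Sox1 and Fabp7 windows and in 25.6% of all windows. The SOX core AACAAT stood in none of the 7 member windows and in 10.7% of all windows, and the Nes window held none of the 5 motifs. CpG dinucleotides numbered 37 in the Sox1 window and 27 in the Sox2 window, against 6 in the Fabp7 window, with a median of 7 over all windows. These matches are letters in a window, not binding sites.

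Between ESC and NPC most of the progenitor genes rose in control cells. Of the 8 members 6 rose (Sox1, Sox3, Sox9, Nes, Vim and Fabp7), Sox2 fell and Pax6 passed in neither direction. The question here is which of the 8 genes move with neural differentiation itself. Of all 18365 genes tested, 41.5% were called in either direction, 21% higher and 20.5% lower, by edgeR's quasi-likelihood test at an adjusted p below 0.05. The median log2 fold change was 3.95 over the 8 members and 0.01 over all genes. The libraries of the 2 stages did not overlap for 7 of the 8 members, and for 42.7% of all genes tested. Between NPC and neuron the set parted: Sox9 and Fabp7 rose and Nes and Vim fell in control neurons, where 43.7% of all genes were called, 23.2% higher and 20.5% lower. Those 4 members were the ones whose libraries did not overlap between the 2 stages, which held for 38.9% of all genes tested. Their shared direction at the first step is no independent evidence, since the genes were picked as progenitor markers.

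**Figure D1:**
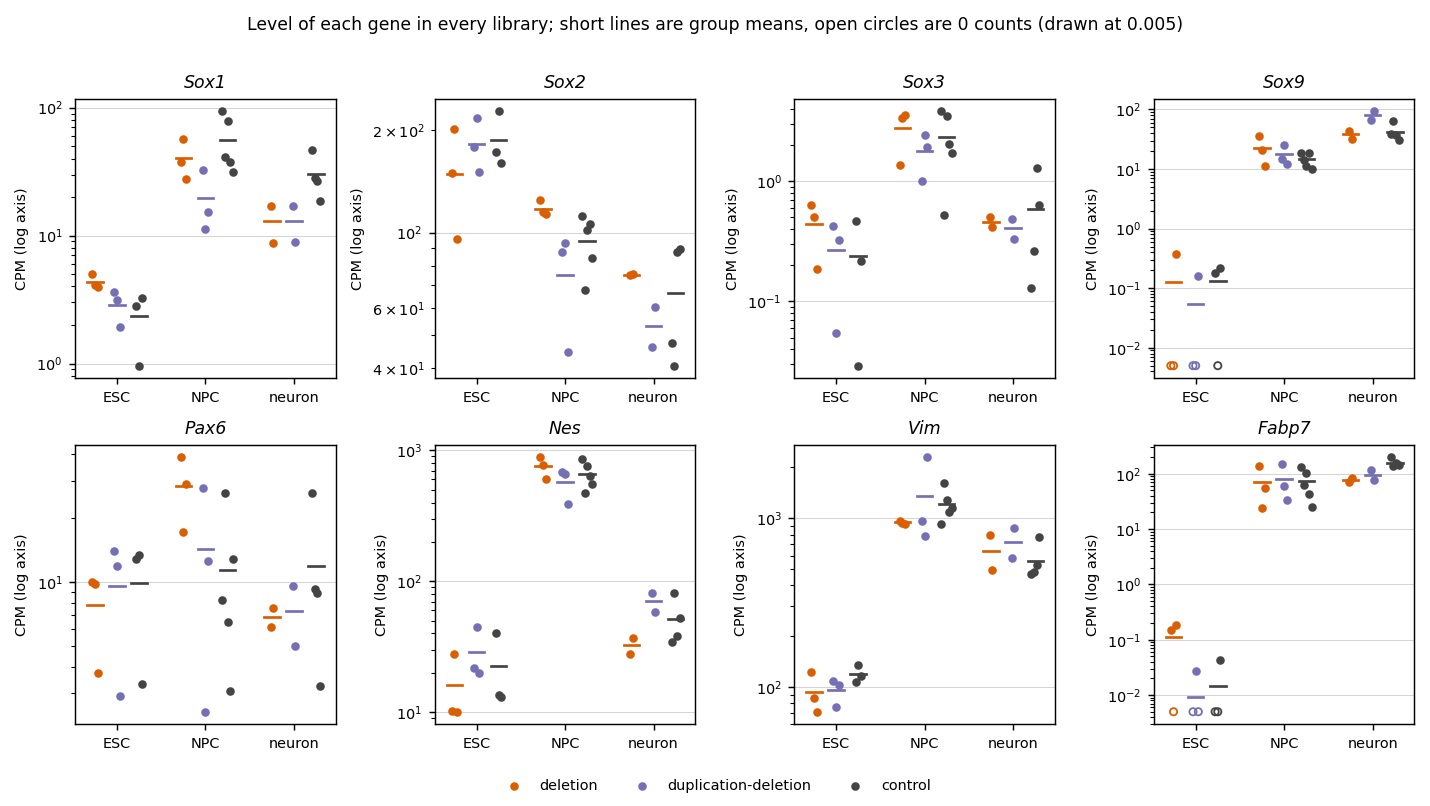
Level of each of the 8 genes in every library, as CPM on a log axis, by stage and genotype, with deletion left of duplication-deletion and control. Sox9 and Fabp7 sat at or near 0 counts in all 9 ESC libraries, Sox2 was between 95.6 and 227 CPM there, and Nes reached 388 to 883 CPM in NPCs alone.

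Sox2 was the one SoxB1 gene already high in ESCs. Control ESC libraries had 172, 227 and 160 CPM, control NPC libraries 112, 67.9, 101, 106 and 84.2 CPM, and control neuron libraries 47.4, 40.7, 87.8 and 89.3 CPM. The ESC libraries all lay above the NPC libraries, while NPC and neuron libraries overlapped, with neuron replicates 3 and 4 inside the NPC range. Sox2 averaged 94.2 ± 17.9 CPM in control NPCs (SD, n = 5) and 186 ± 35.6 in control ESCs (n = 3), a log2 fold change of -1.0 ± 0.274 (SE, adjusted p = 0.00948). Without control ESC replicate 2 the call was lost (-0.85, adjusted p = 0.0562). Neurons against NPCs gave -0.48 ± 0.259, which missed the threshold (adjusted p = 0.154), and neurons against ESCs gave -1.48 ± 0.291 (adjusted p = 0.000637).

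Sox1, the SoxB1 factor that first marks neural commitment, went the other way at the first step. It stood at 2.81, 0.962 and 3.26 CPM in control ESC libraries, at 93.4, 41.0, 78.3, 37.4 and 31.3 CPM in control NPC libraries and at 46.6, 28.4, 26.7 and 18.6 CPM in control neuron libraries. Every NPC and neuron library lay above every ESC library, and of the neuron libraries replicate 1 alone lay inside the NPC range. Sox1 averaged 56.3 ± 27.8 CPM in NPCs and 2.34 ± 1.22 in ESCs, a log2 fold change of 4.58 ± 0.551 (adjusted p = 2.15e-05). Neurons against NPCs gave -0.87 ± 0.404, which did not pass (adjusted p = 0.0958) but passed with the replicate number as a block (-0.96, adjusted p = 0.0163).

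Sox3, the X-linked SoxB1 gene, was low at every stage. Control ESC libraries held 0.465, 0.0291 and 0.217 CPM, control NPC libraries 3.82, 0.520, 3.48, 2.05 and 1.74 CPM, and control neuron libraries 0.129, 0.264, 1.30 and 0.638 CPM. NPC replicate 2 was the low NPC library and lay just above the highest ESC library, while the neuron libraries overlapped both other stages. NPCs against ESCs gave a log2 fold change of 3.26 ± 1.04 (adjusted p = 0.0222), on 703 counts in NPCs and 24 in ESCs. That call was lost without control ESC replicate 2 (adjusted p = 0.0697), without replicate 3 (adjusted p = 0.0640) and without all shallow libraries (adjusted p = 0.0834). In neurons against NPCs Sox3 had -1.96 ± 0.853 (adjusted p = 0.0789), which passed in DESeq2 (-1.86, adjusted p = 0.0476). It also passed in a joint edgeR fit of all libraries (-1.99, adjusted p = 0.0395).

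To set the 3 SoxB1 genes beside each other, CPM was divided by the mm9 length of these single-exon genes (4037 bases for Sox1, 2456 for Sox2 and 2065 for Sox3). Per kb, Sox2 had the highest level of the 3 in each of the 28 libraries. In control cells Sox2 averaged 75.9, 38.3 and 27.0 CPM per kb in ESCs, NPCs and neurons, Sox1 0.581, 13.9 and 7.45, and Sox3 0.115, 1.12 and 0.283. Sox2 thus made up 99.0% ± 0.617 of the summed SoxB1 level in control ESCs, 72.8% ± 7.53 in control NPCs and 75.9% ± 11.8 in control neurons. Sox1 made up 0.820%, 25.2% and 23.4% of that sum, and Sox3 1.96% in NPCs. In NPCs the Sox2 share was 80.9% ± 5.20 in deletion and 83.5% ± 6.15 in duplication-deletion libraries, and the single libraries of both overlapped the control range of 64.5% to 80.8%. The neuron share was 90.0% ± 3.97, 86.0% ± 7.42 and 75.9% ± 11.8 in deletion, duplication-deletion and control libraries, again with overlap.

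**Figure D2:**
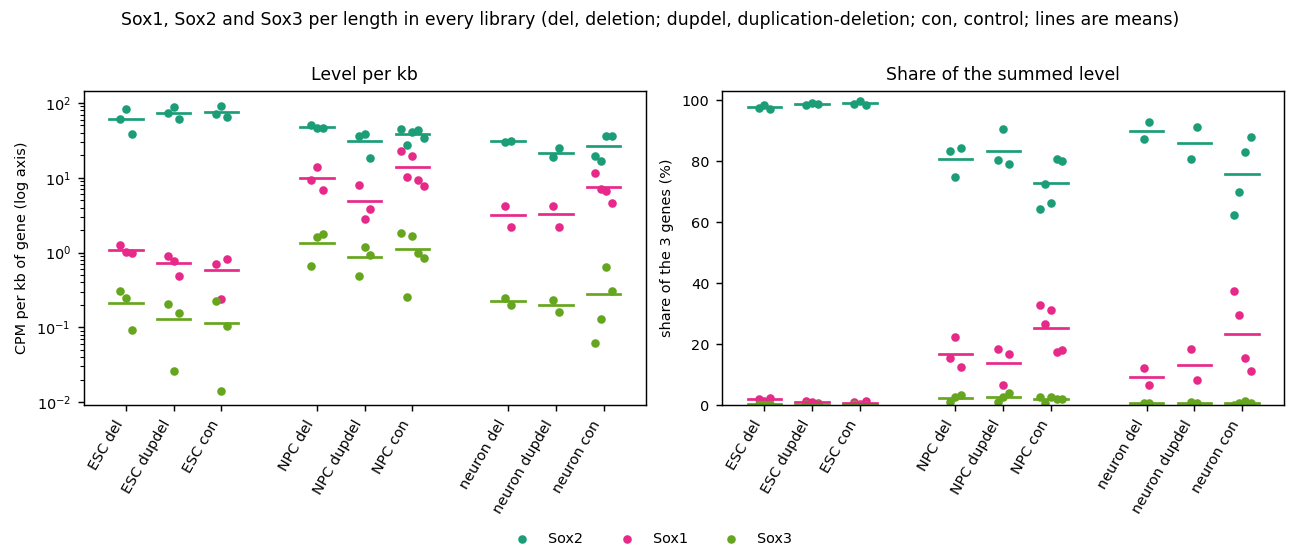
Sox2, Sox1 and Sox3 in every library, as CPM per kb of gene on a log axis (left) and as a share of their sum in percent (right), with lines at the group means. Sox2 held 97.3% or more of the sum in every ESC library and 62.5% to 92.8% in the NPC and neuron libraries.

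Sox9 was barely detected in ESCs and rose at both later steps in control cells. It stood at 0.181, 0 and 0.217 CPM in control ESC libraries, at 18.8, 14.0, 11, 18.9 and 10.2 CPM in control NPC libraries and at 38.2, 64.3, 37.2 and 30.3 CPM in control neuron libraries. No library of one stage overlapped another stage. In the 5 ESC libraries with 0 counts of Sox9, a count of 0 allows up to 0.0581 to 0.111 CPM at a floor of 3 counts per library, which covers counting error only. NPCs against ESCs gave a log2 fold change of 6.80 ± 0.628 (adjusted p = 2.5e-06), on 4234 counts against 12. Neurons against NPCs gave 1.58 ± 0.372, with means of 42.5 ± 15.0 CPM in neurons and 14.6 ± 4.13 in NPCs (adjusted p = 0.00359).

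Pax6 showed no stage change past the threshold in control cells and a wide scatter within each stage. In control ESC libraries it had 12.9, 13.4 and 3.30 CPM, in NPC libraries 8.25, 26.2, 6.48, 3.07 and 12.8 CPM, and in neuron libraries 26.2, 9.29, 8.89 and 3.23 CPM. All 3 stages overlapped, with the highest control library of NPCs and of neurons both at 26.2 CPM. The log2 fold change was 0.18 ± 0.703 for NPCs against ESCs (adjusted p = 0.862) and 0.10 ± 0.641 for neurons against NPCs (adjusted p = 0.925). ESC replicate 3 was the low library for Pax6 in every genotype, with 3.74 CPM in deletion, 2.90 in duplication-deletion and 3.30 in control, against 9.75 to 14.1 CPM in the other 6 ESC libraries. These are also the shallow ESC libraries, and the part of depth in this was not tested.

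Nes, the gene for nestin, was high in NPCs and low at the stages before and after. Control ESC libraries had 40.6, 13.6 and 13.1 CPM, control NPC libraries 861, 470, 766, 641 and 559 CPM, and control neuron libraries 34.2, 81.8, 38.0 and 52.4 CPM. NPC libraries lay far above both other stages, and neuron replicates 1 and 3 lay below ESC replicate 1. Nes rose in NPCs, with 660 ± 157 CPM against 22.5 ± 15.7 in ESCs (log2 fold change 4.86 ± 0.499, adjusted p = 5.94e-06). It fell in neurons, with 51.6 ± 21.6 CPM against 660 ± 157 in NPCs (-3.64 ± 0.412, adjusted p = 1.12e-05). Neurons were above ESCs by 1.22 ± 0.423 (adjusted p = 0.0243), a call that was lost without ESC replicate 2 (adjusted p = 0.0872), ESC replicate 3 (adjusted p = 0.0945) or neuron replicate 2 (adjusted p = 0.0795), and without all shallow libraries (adjusted p = 0.119).

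Vim, which encodes vimentin and is made by progenitors, glia and mesenchymal cells, followed Nes upwards but fell less. Control ESC libraries had 108, 135 and 116 CPM, control NPC libraries 929, 1609, 1277, 1095 and 1152 CPM, and control neuron libraries 464, 479, 525 and 769 CPM. The 3 stages did not overlap. NPCs against ESCs gave 3.33 ± 0.278 on the log2 scale (adjusted p = 1.13e-06), neurons against NPCs -1.09 ± 0.223 (adjusted p = 0.0014) and neurons against ESCs 2.24 ± 0.268 (adjusted p = 8.31e-06).

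Fabp7 had the steepest onset of the 8 in control cells. Control ESC libraries had 0, 0 and 0.0434 CPM, which is 1 count in all, control NPC libraries 135, 62.0, 105, 42.3 and 25.0 CPM, and control neuron libraries 197, 138, 155 and 145 CPM. Every neuron library was above every NPC library, though NPC replicate 1 (135 CPM) and neuron replicate 2 (138 CPM) were close. Scaled for depth, NPCs had 8266 times the ESC count, with an exact 95% binomial interval of 1483 to 326511 (adjusted p = 4.68e-07). In the 5 ESC libraries with 0 counts of Fabp7, that count allows up to 0.0581 to 0.121 CPM. In neurons Fabp7 rose to 159 ± 26.5 CPM, against 73.9 ± 45.5 in NPCs (log2 fold change 1.14 ± 0.392, adjusted p = 0.0302). That call was lost without any 1 of NPC replicates 2 and 4 (adjusted p = 0.0635 and 0.0724) and neuron replicates 1, 3 and 4 (0.0529, 0.0599 and 0.0505).

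In deletion cells 7 of the 8 members rose between ESC and NPC, against 16.7% of the 18183 genes tested that rose, 13.2% that fell and 29.9% called in either direction. Sox1 (3.21 ± 0.414), Nes (5.53 ± 0.515) and Vim (3.34 ± 0.368) rose on the log2 scale, and Fabp7 gave 9.69 ± 0.971 on 5 ESC counts (adjusted p from 6.18e-05 to 0.000327). Sox9 had 3384 counts in NPCs and 2 in ESCs, a scaled ratio of 779.7 with an interval of 216 to 6441. Pax6 rose in deletion cells, with 38.6, 17.1 and 28.9 CPM in NPC libraries against 9.95, 9.75 and 3.74 CPM in ESC libraries. Every deletion NPC library lay above every deletion ESC library for Pax6, and its log2 fold change was 1.82 ± 0.455 (adjusted p = 0.0126). The Pax6 call was lost without NPC replicate 1 (1.48, adjusted p = 0.0680) and without all shallow libraries (1.49, adjusted p = 0.0539). Sox3 passed narrowly (2.54 ± 0.792, adjusted p = 0.0339), and was lost when any of ESC replicates 1, 2 and 3 or NPC replicates 3 and 5 was left out (adjusted p from 0.0669 to 0.104). Sox2 had a log2 fold change of -0.35 ± 0.310 and passed in neither direction (adjusted p = 0.432).

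Duplication-deletion cells had 5 members higher and Sox2 lower in NPCs than in ESCs, against 17.5% of 18565 genes higher, 14.2% lower and 31.8% called in all. Sox1 rose by 2.80 ± 0.522, Nes by 4.36 ± 0.444 and Vim by 3.82 ± 0.457 on the log2 scale, and Sox9 by 8.78 ± 0.913 on 4 ESC counts (adjusted p from 0.000198 to 0.0038). Fabp7 had 13315 counts in NPCs and 1 in ESCs, a scaled ratio of 10814 with an interval of 1941 to 427172. Sox2 fell to 87.7, 93.1 and 44.7 CPM in NPC libraries, against 178, 217 and 151 CPM in ESC libraries, with no overlap (-1.24 ± 0.336, adjusted p = 0.0209). That Sox2 call was lost without ESC replicate 2 (adjusted p = 0.0720). Sox3 missed the threshold at 2.74 ± 0.964 (adjusted p = 0.0555) and Pax6 had 0.59 (adjusted p = 0.614). Sox3 did pass here in DESeq2 (2.66, adjusted p = 0.0169) and in a joint edgeR fit of all libraries (2.72, adjusted p = 0.0268).

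At the step from NPC to neuron Nes fell in every genotype. It fell to 27.9 and 37.2 CPM in deletion neuron libraries, against 883, 780 and 602 CPM in deletion NPC libraries (-4.54 ± 0.585, adjusted p = 0.000867). In duplication-deletion cells it fell to 81.7 and 58.7 CPM in neuron libraries, against 686, 657 and 388 CPM in NPC libraries (-3.03 ± 0.492, adjusted p = 0.00488). The duplication-deletion call was lost without neuron replicate 4 (-2.81, adjusted p = 0.0576). In deletion cells Sox1 (-1.65 ± 0.445, adjusted p = 0.0267) and Pax6 (-2.04 ± 0.530, adjusted p = 0.0228) fell as well, among 9.39% of genes that were lower, 10.5% that were higher and 19.9% called in all. Both calls depended on single libraries, since Sox1 lost its call without NPC replicate 1 (adjusted p = 0.0729), NPC replicate 3 (0.0975) or neuron replicate 3 (0.167). Pax6 lost its call without NPC replicate 1 (adjusted p = 0.101), neuron replicate 1 (0.113) or neuron replicate 3 (0.0791). In duplication-deletion cells Sox9 rose by 2.19 ± 0.631 (adjusted p = 0.0463), among 8.04% of genes that were higher, 6.95% lower and 15% called in all, and lost its call whichever library was left out (adjusted p from 0.0513 to 0.251). Fabp7, which rose in control neurons, had 0.08 in deletion (adjusted p = 0.961) and 0.26 in duplication-deletion neurons (adjusted p = 0.816). Vim, which fell in control neurons, had -0.56 in deletion (adjusted p = 0.343) and -0.85 in duplication-deletion neurons (adjusted p = 0.255). These genotypes had 2 neuron libraries each and control 4. Over the whole course, neurons against ESCs, 4 members rose and 1 fell in deletion cells, 5 rose and 1 fell in duplication-deletion cells, and 5 rose and 1 fell in control cells. The member that fell was Sox2 each time. In deletion cells its call (-0.99, adjusted p = 0.0442) was lost with RLE scaling (adjusted p = 0.0501) and without a filter on low counts (0.0560). It was also lost without ESC replicate 1 or 2 or either neuron library (adjusted p from 0.0920 to 0.154), and Sox1 lost its call without neuron replicate 1 (0.124). In duplication-deletion cells Sox2 and Sox1 lost their calls without neuron replicate 2 (adjusted p = 0.0616 and 0.0952), and Nes without ESC replicate 1 or 3 or either neuron library (0.0598 to 0.209). For this span the shares of all genes called were 43.4%, 43.7% and 57.4%. Of all genes, 23.9% were higher and 19.5% lower in deletion cells, 23.8% and 19.9% in duplication-deletion cells, and 29.8% and 27.6% in control cells.

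**Figure D3:**
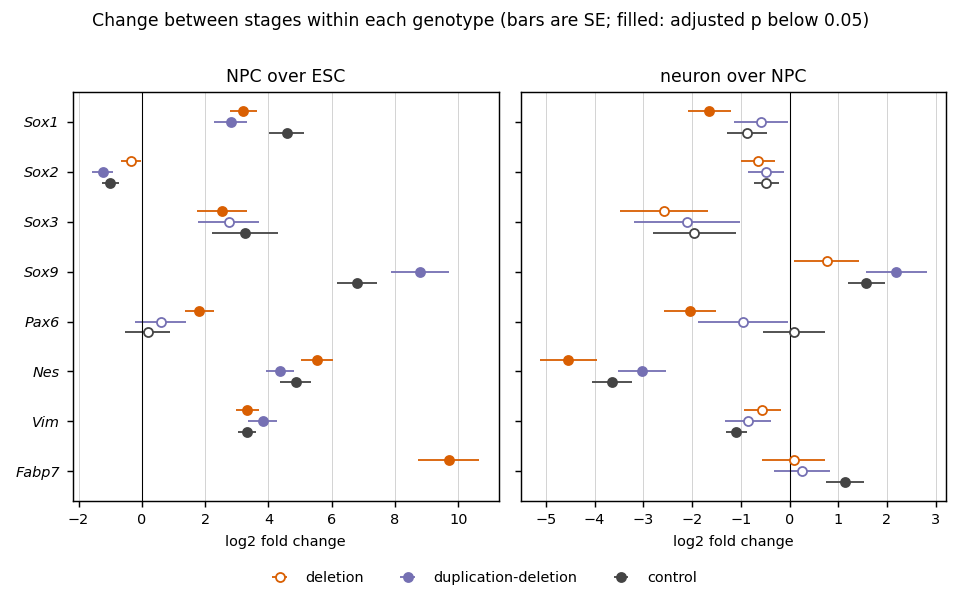
Log2 fold change of each gene between stages, NPC over ESC and neuron over NPC, in each genotype, with bars for SE and filled points for an adjusted p below 0.05. Values where a group held 1 to 3 counts (Sox9 in deletion and Fabp7 in control and duplication-deletion, NPC over ESC) are not drawn. Nes is high at the first step and far below 0 at the second in all 3 genotypes.

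The comparison of genotypes asks whether the copy number of 7qF3, or its arrangement on the chromosomes, goes with a change of these genes at a given stage. No member passed the threshold in any of the 9 comparisons of genotypes. In edgeR the share of all genes called was also small: 0% in each of the 3 ESC comparisons. In NPCs it was 0.00596% for deletion against control, 0.0119% for duplication-deletion against control and 0.0238% for deletion against duplication-deletion. In neurons it was 0%, 0.039% and 0.0335% in the same order. DESeq2, which called 4 to 246 genes over all genes in these comparisons, also called 0 members. At an unadjusted p below 0.05 there were 0 members in the ESC comparisons, 0, 1 and 1 in NPCs and 2, 3 and 2 in neurons. Of all genes tested, 1.26%, 0.31% and 0.996% were below that unadjusted p in ESCs, 3.56%, 2.66% and 4.01% in NPCs, and 3.63%, 7.22% and 8.85% in neurons. The median over 6 interval genes was 37.9% to 45.9% of control in deletion ESC libraries and 50.5% to 56.2% in deletion neuron libraries. In edgeR no gene was called between deletion and control at these stages, so a missing call does not show that a gene was unchanged.

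In ESCs 6 members could be tested, since Sox9 and Fabp7 had too few counts. Sox1 was the one whose libraries parted by genotype. It stood at 5.01, 4.08 and 3.93 CPM in deletion libraries, at 3.62, 3.12 and 1.93 CPM in duplication-deletion libraries and at 2.81, 0.962 and 3.26 CPM in control libraries. All deletion libraries lay above all libraries of both other genotypes. Libraries parted in this way for 6.9% of all genes between deletion and control and for 4.88% between deletion and duplication-deletion. The log2 fold change of deletion over control was 0.97 ± 0.495 (adjusted p = 1). Sox2 had 149, 202 and 95.6 CPM in deletion, 178, 217 and 151 CPM in duplication-deletion and 172, 227 and 160 CPM in control libraries, which overlapped.

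In NPCs the lowest Sox1 levels were in duplication-deletion libraries. Sox1 had 37.8, 56.6 and 27.5 CPM in deletion libraries, 32.7, 11.2 and 15.4 CPM in duplication-deletion libraries and 93.4, 41.0, 78.3, 37.4 and 31.3 CPM in control libraries. Duplication-deletion replicates 4 and 5 lay below every control library, but replicate 2 lay above control replicate 5, so the groups overlapped. Duplication-deletion over control gave -1.51 ± 0.459 on the log2 scale (adjusted p = 1), with means of 19.8 ± 11.4 CPM in duplication-deletion and 56.3 ± 27.8 CPM in control NPCs. The authors' deposited table gave -1.48 for the same comparison, with an adjusted p of 0.152. Deletion over control gave -0.46 ± 0.438.

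Sox2 in NPCs was 124, 115 and 113 CPM in deletion libraries, 87.7, 93.1 and 44.7 CPM in duplication-deletion libraries and 112, 67.9, 101, 106 and 84.2 CPM in control libraries. Every deletion library lay above every library of the other genotypes, though deletion replicate 5, at 113 CPM, was close to control replicate 1, at 112 CPM. Libraries did not overlap for 3.12% of all genes between deletion and control NPCs, and for 6.72% between deletion and duplication-deletion NPCs. The log2 fold change of Sox2 was 0.33 ± 0.247 over control and 0.65 ± 0.279 over duplication-deletion, neither past the threshold (adjusted p = 1 for each).

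Pax6 had the largest fold change of the 8 between deletion and control NPCs, without passing. It stood at 38.6, 17.1 and 28.9 CPM in deletion libraries, at 27.6, 2.45 and 12.6 CPM in duplication-deletion libraries and at 8.25, 26.2, 6.48, 3.07 and 12.8 CPM in control libraries. Control replicate 2 lay inside the deletion range, and the other 4 control libraries below it. Deletion over control was 1.32 ± 0.701 (adjusted p = 1), and 1.58 with the replicate number as a block (adjusted p = 0.084). The authors' deposited table gave 1.30 with an adjusted p of 0.569. The summed level of 6 forebrain markers was 58.0, 74.8 and 19.6 CPM in deletion libraries. It was 9.73 to 15.1 CPM in duplication-deletion libraries and 7.25 to 18.4 CPM in control libraries. The order of single libraries was not that of Pax6: deletion replicate 3 had the highest sum and the lowest Pax6 of its group. Duplication-deletion replicate 2 and control replicate 2, at 27.6 and 26.2 CPM of Pax6, had sums of 15.1 and 13.4 CPM. Control replicate 4 and duplication-deletion replicate 4, lowest in Pax6, had the highest sums of midbrain floor plate markers. These were 622 and 569 CPM, against 110 to 376 CPM in the other NPC libraries. Deletion replicate 1, highest in Pax6, had 376 CPM. The part of these forebrain and floor plate markers in the Pax6 level was not tested.

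The other members overlapped between genotypes in NPCs. Vim had 969, 943 and 925 CPM in deletion libraries, 967, 786 and 2291 CPM in duplication-deletion libraries and 929 to 1609 CPM in control libraries, with duplication-deletion replicate 5 far above the rest. In that library Sox2 (44.7 CPM) and Nes (388 CPM) were the lowest of all NPC libraries. It also had the highest summed level of 7 neural crest and mesenchyme markers, 279 CPM against 23.8 to 207 CPM in the other 10 NPC libraries, and the lowest of 5 dividing-cell markers, 1609 CPM against 2416 to 3870 CPM. It is 1 of the 3 shallow NPC libraries, and the part of these cells and of depth in its member levels was not tested.

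In neurons Sox1 and Fabp7 were lower in both mutants than in control libraries, without overlap, and neither passed the threshold. Sox1 had 17.1 and 8.81 CPM in deletion libraries, 17.1 and 8.93 CPM in duplication-deletion libraries and 46.6, 28.4, 26.7 and 18.6 CPM in control libraries. All 4 mutant libraries lay below the lowest control library, replicate 4. Its log2 fold change over control was -1.20 ± 0.464 in deletion (adjusted p = 1) and -1.22 ± 0.464 in duplication-deletion neurons (adjusted p = 0.681). Libraries did not overlap for 9.92% of all genes between deletion and control neurons and for 19% between duplication-deletion and control neurons. Both comparisons share the control libraries.

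Fabp7 had 70.0 and 82.9 CPM in deletion, 116 and 77.7 CPM in duplication-deletion and 197, 138, 155 and 145 CPM in control neuron libraries. Again all 4 mutant libraries lay below all control libraries. Its log2 fold change over control was -1.04 ± 0.290 in deletion (adjusted p = 1) and -0.73 ± 0.286 in duplication-deletion neurons (adjusted p = 0.681). The authors' deposited table gave -1.03 for deletion neurons, with an adjusted p of 0.130. The summed level of 5 astrocyte markers was 335 and 264 CPM in deletion, 421 and 238 CPM in duplication-deletion and 425 to 473 CPM in control neuron libraries. All mutant libraries lay below the control libraries for these markers too, and their part in the Fabp7 level was not tested.

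Sox9 was higher in duplication-deletion neurons than in both other genotypes, without overlap and without passing. Its libraries had 44.2 and 32.1 CPM in deletion, 66.1 and 92.7 CPM in duplication-deletion and 38.2, 64.3, 37.2 and 30.3 CPM in control. Libraries did not overlap for 19% of all genes between duplication-deletion and control neurons, and for 39.8% between deletion and duplication-deletion neurons. Duplication-deletion replicate 2, at 66.1 CPM of Sox9, stood close to control replicate 2, at 64.3 CPM. Duplication-deletion replicate 4 was at 92.7 CPM, against 30.3 CPM in control replicate 4. The log2 fold change was 0.88 ± 0.342 for duplication-deletion over control (adjusted p = 0.681) and -1.03 ± 0.410 for deletion over duplication-deletion (adjusted p = 0.535). The authors' deposited table gave 0.89 for duplication-deletion over control, with an adjusted p of 0.305. The summed oligodendrocyte-lineage markers had 47.8 and 70.1 CPM in deletion, 88.0 and 186 CPM in duplication-deletion and 76.9 to 105 CPM in control libraries. Duplication-deletion replicate 2 thus lay inside the control range. The 6 midbrain floor plate markers summed to 391 and 401 CPM in duplication-deletion libraries, above 321 and 186 CPM in deletion and 129 to 277 CPM in control. The 5 astrocyte markers went the other way, with 421 and 238 CPM in duplication-deletion against 425 to 473 CPM in control libraries. The part of these cell types in the Sox9 level was not tested.

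Nes had 27.9 and 37.2 CPM in deletion neuron libraries, against 81.7 and 58.7 CPM in duplication-deletion neuron libraries. The deletion libraries, replicates 1 and 3, lay below the duplication-deletion libraries, replicates 2 and 4. Libraries did not overlap in either direction for 39.8% of all genes in this comparison of 2 against 2. Control neuron replicates 1 and 3 had 34.2 and 38.0 CPM of Nes, and control replicates 2 and 4 had 81.8 and 52.4 CPM. The mutant groups share no replicate number, so genotype and replicate number cannot be told apart here. The log2 fold change of Nes for deletion over duplication-deletion was -1.08 ± 0.451 (adjusted p = 0.545). Sox2 parted the same pair the other way, with 74.9 and 75.4 CPM in deletion libraries against 46.0 and 60.5 CPM in duplication-deletion libraries. Vim, Pax6 and Sox3 overlapped between the mutants and control in neurons.

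**Figure D4:**
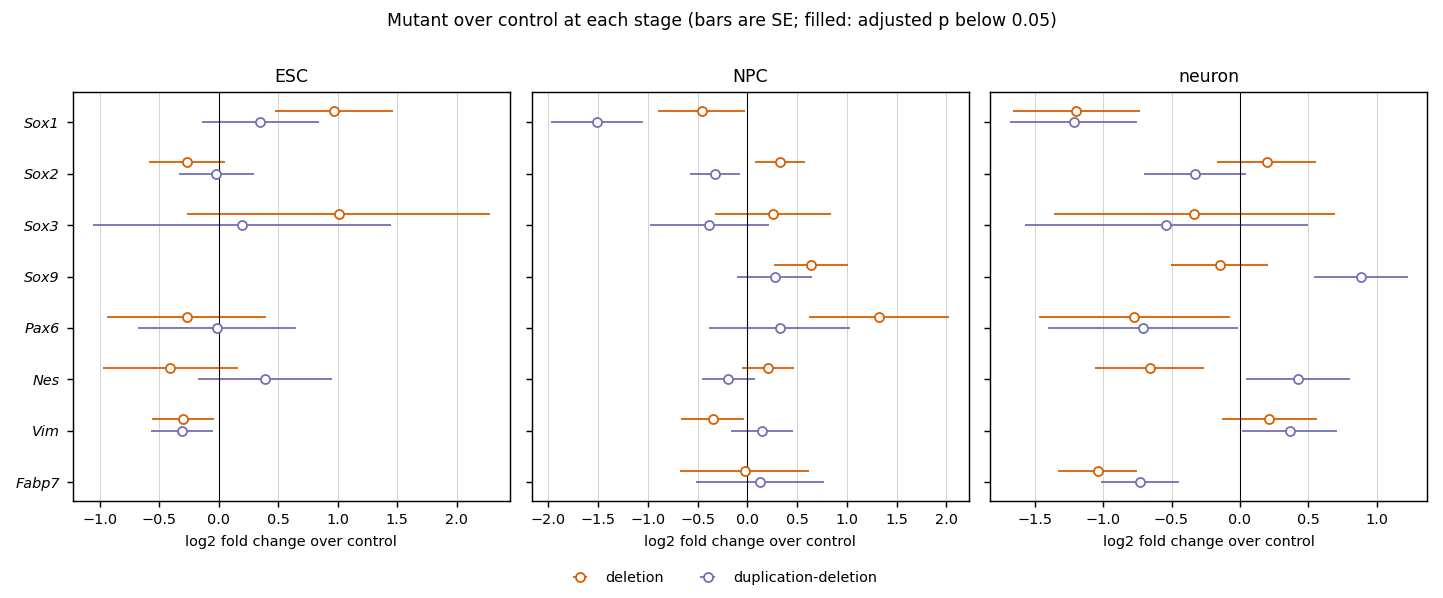
Log2 fold change of each gene for deletion over control and duplication-deletion over control at each stage, with bars for SE. No point is filled, since no adjusted p was below 0.05, and Sox9 and Fabp7 are not drawn in ESCs, where they had too few counts for the test.

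Whether a genotype effect on these genes differed between stages was tested directly as an interaction in a fit of all 28 libraries, in 32 tests of the 8 members. None passed in edgeR, nor in DESeq2, and 1 of them had an unadjusted p below 0.05, a cut passed by 2.67% to 5.02% of all genes in these contrasts. The share of all 19996 genes called was 0.005% for the deletion effect in NPCs minus ESCs, 0.005% for that in neurons minus NPCs, and 0.005% and 0% for the duplication-deletion effect. That 1 was Sox1, with -1.82 ± 0.668 on the log2 scale for the duplication-deletion effect in NPCs minus that in ESCs (adjusted p = 1). Sox1 had -1.37 ± 0.669 for the deletion effect over the same stages, and Pax6 -2.11 ± 1.13 for the deletion effect in neurons minus that in NPCs (adjusted p = 1 for both). For Pax6 the deletion effect in NPCs minus that in ESCs was 1.62 ± 1.06, and for Fabp7 that in neurons minus NPCs was -1.02 ± 0.811. The authors' deposited table listed 5 members in the ESC comparisons and 8 in the others, of which 0 had an adjusted p below 0.05 in the 6 comparisons of a mutant with control.

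Other genes of the same families were counted from lists chosen with earlier results known. Of 14 other Sox genes tested in control NPCs over ESCs, 6 rose and 3 fell (median log2 fold change 1.56, or 0.76 with a gene at 0 counts set at its bound). Sox21, a SoxB2 factor, had 31.2 CPM in NPCs against 1.07 in ESCs (4.86), and Sox11, a SoxC factor of young neurons, 312 against 18.8 CPM (4.03). In neurons over NPCs 3 rose and 2 fell. Sox8, a SoxE relative of Sox9, had 14.2 CPM in neurons against 0.991 in NPCs (3.87).

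Of 14 other radial glia and progenitor genes, 11 rose and 0 fell in control NPCs over ESCs, with a median of 4.28. Cdh2, the N-cadherin that joins neuroepithelial cells, had 429 CPM in NPCs against 6.54 in ESCs (6.01), and Rfx4, a transcription factor of the neural tube, 61.3 against 1.06 CPM (5.85). In neurons over NPCs 6 rose and 2 fell. Slc1a3, the glial glutamate transporter, had 284 CPM in neurons against 57.8 in NPCs (2.33), and Ptprz1, a receptor phosphatase of radial glia, 299 against 34.9 CPM (3.13).

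Of the 8 partner factors of Sox2, 5 rose and 3 fell in NPCs over ESCs. Pou5f1 had 0.0961 CPM in control NPCs against 260.2 in ESCs (-11.35). Pou3f3, a POU factor of neural cells, had 25.9 against 0.214 CPM (7.01), and Pou3f2 and Pou3f4 had 25.3 and 19.4 CPM in NPCs and 0 counts in ESCs. Sox2 itself had 94.2 CPM in these NPCs, against 186 CPM in ESCs. In neurons over NPCs 1 rose and 4 fell, among them Chd7, a chromatin remodeller that binds Sox2, with 78.1 CPM in neurons against 211 in NPCs (-1.40).

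Intermediate filament genes other than Nes and Vim did not move as a block: 2 rose and 4 fell of 12 in NPCs over ESCs (median -0.63), and 6 rose and 3 fell in neurons over NPCs. Gfap, the astrocyte filament, had 73.7 CPM in neurons against 0.0481 in NPCs (10.63), and Krt18, an epithelial keratin, 0.653 against 34.7 CPM (-5.68). Of 6 other fatty acid binding protein genes 3 could be tested in control cells. Fabp5 rose to 88.5 CPM in NPCs, against 14.9 in ESCs (2.56), and Fabp3 fell to 8.92, against 167 CPM (-4.24). No gene of these lists passed in any comparison of genotypes.

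Of 6 transcripts next to or overlapping a member, 4 were in the table and 3 were tested. Sox2ot, a long noncoding RNA whose gene spans Sox2, had 16.5 CPM in control NPCs against 3.74 in ESCs (2.11 ± 0.473, adjusted p = 0.00265), while Sox2 was lower in NPCs. Sox1ot, at the Sox1 locus and listed under an older symbol, had 3.78 CPM in NPCs against 0.0489 in ESCs (6.14 ± 0.812, adjusted p = 4.81e-05). It had 9.93 CPM in neurons against 3.78 in NPCs (1.42 ± 0.492, adjusted p = 0.0309). Whether strand was used in counting is not given in the sources used here, so reads of overlapping transcripts cannot be told apart.

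For each member the 2 genes with the most similar log2 CPM over the 28 libraries were sought among 11178 other genes with a mean of at least 5 CPM. The 28 libraries fall into 3 stages, so libraries of 1 stage share much of their level, and the correlations are a description. The closest genes were Otx1 for Sox1 (Pearson r = 0.928), Exosc7 for Sox2 (0.897), Cand2 for Sox3 (0.858), D0H4S114 for Sox9 (0.987), Hmgn2 for Nes (0.971), Col11a1 for Vim (0.971) and Erbb4 for Fabp7 (0.985). Second came Unc13b (0.917), Cars (0.894), Plagl2 (0.854), Gab2 (0.985), Gm6724 (0.952), Nkd1 (0.966) and Fam115a (0.982), in the same order. Pax6 had no such close match: Morf4l1 reached 0.712 and Rala 0.702.

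The stages were also read against markers of other cells that a culture could hold. The summed level of 6 neuron markers was 1620 to 3320 CPM in neuron libraries and 488 to 1857 CPM in NPCs. Neuron libraries held Sox2, Vim and Fabp7 together with neuron markers, and 5 astrocyte markers summed to 238 to 473 CPM in them. The 6 dopaminergic markers summed to 232 and 161 CPM in deletion, 998 and 425 CPM in duplication-deletion and 476 to 595 CPM in control neuron libraries. Deletion libraries lay below all others for these, and among the members only Sox1 and Fabp7 set deletion neurons below all control libraries. The part of these cell types in the member levels was not tested. At these later stages the defining markers at 0 counts in a whole group were Nanog in control NPCs, Zfp42 in all 3 groups of neurons, Tfap2a (under an older symbol) in deletion neurons, and Sox17 and Mixl1 in duplication-deletion neurons.

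**Figure D5:**
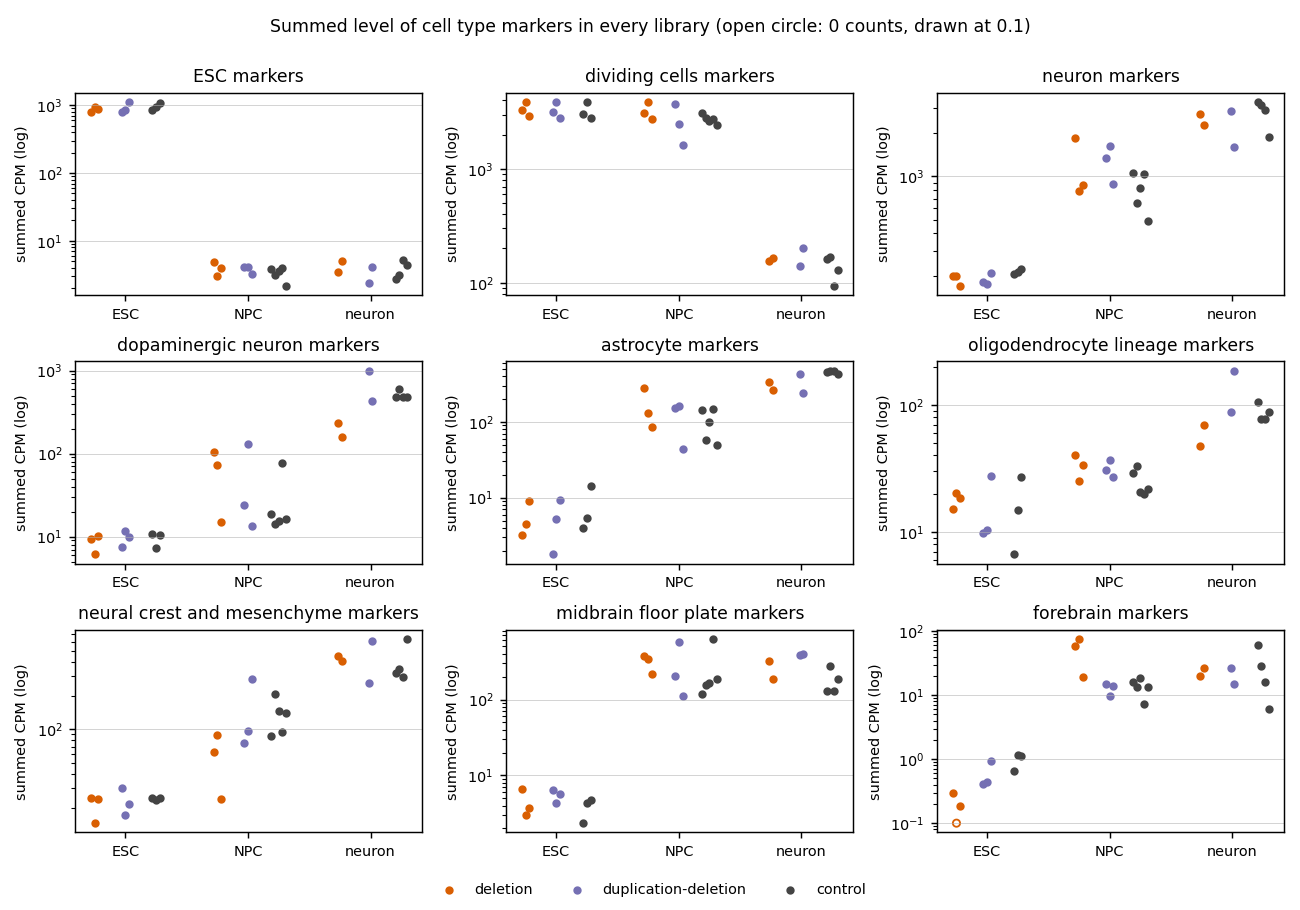
Summed CPM of each cell type's markers in every library, on a log axis, by stage and genotype. ESC markers are at most 5.24 CPM after the ESC stage, dividing-cell markers reach at most 200.2 CPM in neurons, and forebrain markers are 19.6 to 74.8 CPM in deletion NPCs, above all other NPC libraries.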

How the data were processed

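The authors deposited expected counts per gene, for which the submitters' processing notes name STAR 2.6.0c, RSEM 1.3.0 and the build mm9. The authors' deposited table of 6 mutant-against-control comparisons gives a log2 fold change and its SE, a p-value and an adjusted p-value per gene, from DESeq2 1.22.2 per the same notes. Expected counts were rounded (6392 of 29968 entries were not whole) and 92 spike-in entries, at most 1.80% of a library, were left out. The largest single entry took 19.6% to 38.8% of a library's counts. No library copied another: over 33 pairs within a group, chi-square divided by its degrees of freedom was at least 66.9.

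CPM used TMM effective library sizes over all 28 libraries, and log2 CPM a prior count of 2. Tests ran in edgeR 4.0.16 under R 4.3.3 (robust quasi-likelihood fits, filterByExpr by group, Benjamini-Hochberg over all genes tested, threshold 0.05, two-sided), with the stages fitted within each genotype, the genotypes within each stage, and interactions over all libraries. Where a group held 1 to 3 counts, a ratio with its exact 95% binomial interval is given. Intervals and floors cover counting error only. The code was tested on simulated data.

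All members are named in the text. From each list, up to 4 genes past the threshold with the smallest p could be named per control comparison, and for likeness the 2 genes with the highest correlation per member. The members and lists were chosen with earlier results of these data known. Of 124 list genes 3 matched under an older symbol and 3 were not found. For duplication-deletion NPCs a description label names the deletion alone, and the title and genotype label were used. The 6 Hi-C samples are not analysed here.

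In ESCs all 9 same-numbered pairs of libraries deviated together (r from 0.178 to 0.590 over genes). The highest of these, 0.465 to 0.590, were between the shallow replicates 3. Of 18 ESC pairs with different numbers, 2 passed 0.1, with r up to 0.193. The number was therefore taken as a likely pairing in ESCs. In NPCs 5 of 7 same-numbered and 6 of 32 other pairs passed 0.1, and in neurons 3 of 4 and 2 of 16. Alternatives were DESeq2 1.42.0, RLE scaling, no filter, the replicate block, 1 fit over all libraries, leaving out the shallow libraries and leaving out each library in turn.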

Additional observations from a re-analysis of the deposited data

How the results depend on the processing

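No member that passed the threshold, with or without an alternative, changed direction. Over all comparisons, called or not, 131 of 2296 alternative values of members had the other sign, over 54 pairs of a member and a comparison. Of these 131, 0 passed with or without the alternative. Nes in deletion over control ESCs, for example, had -0.41 with all libraries and 0.34 without control ESC replicate 1. With 1 library left out at a time, the number of members called of 8 ran from 5 to 7 in control NPCs over ESCs (7 with all libraries), 3 to 4 in control neurons over NPCs (4), and 5 to 6 in control neurons over ESCs (6). In deletion cells it was 6 (7 with all libraries), 1 to 3 (3) and 3 to 5 (5) for the same steps. In duplication-deletion cells it was 5 to 6 (6), 0 to 1 (2) and 3 to 6 (6). It stayed at 0 in all genotype and interaction comparisons. Over all genes, counts called depended on the tool. DESeq2 called 7, 4 and 18 genes in the ESC genotype comparisons, 93, 49 and 101 in NPCs, 64, 158 and 246 in neurons, and 37, 8, 30 and 34 interactions. It called 4323 in duplication-deletion neurons over NPCs, against 2783 in edgeR, and a fit over all libraries called 4206. That joint fit called 1, 0 and 1 genes in ESCs, 16, 15 and 25 in NPCs and 2, 1 and 6 in neurons. Without a filter 14 and 26 were called for duplication-deletion over control and deletion over duplication-deletion neurons, and RLE scaling left 1 for duplication-deletion over control NPCs. Among alternatives with all libraries and without the replicate block, the smallest member adjusted p in a genotype comparison was 0.0942, in DESeq2 (Fabp7, deletion over control neurons, -1.03). In the joint fit the smallest was 0.446 (Sox1). The joint fit also lost Fabp7 in control neurons over NPCs (adjusted p = 0.0663) and Pax6 in deletion NPCs over ESCs (0.0870) and neurons over NPCs (0.122). It gained Sox3 in control neurons over NPCs (0.0395) and in duplication-deletion NPCs over ESCs (0.0268). DESeq2 gained Sox3 in both (0.0476 and 0.0169) and in deletion neurons over NPCs (-2.46, adjusted p = 0.0186). RLE scaling shifted the median of all genes by 0.115 in control and 0.126 in deletion neurons over NPCs on the log2 scale. Causes were not tested. Values of Sox9 and Fabp7 in ESCs, at 1 to 12 counts per group, and of Sox3, at 24 to 33, rest on few counts.

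With the replicate number as a block, 9, 7 and 13 genes were called in the ESC genotype comparisons, where same-numbered libraries deviated together. The block called 11, 2 and 2 genes in NPCs and 13, 40 and 21 in neurons. Interactions stood at 3, 0, 1 and 0, and 0 members were called in any of these comparisons. The smallest member adjusted p under the block was 0.084, for Pax6 in deletion over control NPCs. Duplication-deletion NPCs over ESCs had 3214 genes under the block, against 5902. Across stages the samples share only a number: 2 of 10 control, 3 of 6 deletion and 2 of 4 duplication-deletion pairs had r above 0.1. Among pairs with different numbers it was 7 of 37, 5 of 15 and 3 of 17 in the same order. There the block added Sox1 in control neurons over NPCs and Nes in deletion neurons over ESCs (1.66, adjusted p = 0.0153), and it lost Sox3 in deletion NPCs over ESCs (adjusted p = 0.217), Sox2 in deletion neurons over ESCs (0.202) and duplication-deletion NPCs over ESCs (0.0544), and Nes in duplication-deletion neurons over ESCs (0.183).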
